A study of Mus musculus with 10 samples.

Results

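The integrated stress response was followed here at the RNA level through 10 genes in mouse livers with and without *Ndrg3*. They are the genes of the transcription factors ATF4, ATF5, ATF3 and CHOP (*Ddit3*), the target genes *Asns*, *Slc7a11*, *Chac1*, *Trib3* and *Sesn2*, and the hormone gene *Fgf21*. The genes were taken by symbol from the 24052 symbols of the deposited count tables, where all 10 were listed. Of these, 9 reached at least 1 CPM (counts scaled to library size) in at least 5 livers and were tested among 11208 genes. *Slc7a11* did not reach this level and is given by its counts.

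RNA was sequenced from 10 livers of C57BL/6 mice with free access to food, 5 of them wild-type and 5 Ndrg3 LKO. Each liver gave 1 library. Ndrg3 LKO mice lack exon 4 of *Ndrg3*, a gene of the N-myc downstream-regulated family, through a floxed allele (Ndrg3 f/f) and a Cre recombinase driven by the albumin promoter (Alb-Cre). The floxed line had been backcrossed to C57BL/6N, and the controls were wild-type littermates. According to the methods the mice were 8 to 10 weeks old, whereas the figure legend that gives the feeding state names a later age range. Albumin-driven Cre acts in hepatocytes and their relatives, so the other cells of a liver keep the gene and contribute to whole-liver RNA. In such bulk RNA, fewer cells of a type and less RNA per cell cannot be told apart. The methods count as many mice as livers in each group. The study's figure legends for these livers give 5 wild-type and 4 Ndrg3 LKO livers and do not name the liver left out. All 10 were used here, and p-values measure the spread between these livers.

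Cells enter the integrated stress response when 1 of several kinases phosphorylates the alpha subunit of the initiation factor eIF2. This lowers protein synthesis as a whole while the *Atf4* and *Atf5* mRNAs, which carry upstream open reading frames, are translated more. ATF4 then pairs with C/EBP and other bZIP proteins at C/EBP-ATF response elements and drives genes of amino acid uptake and synthesis, antioxidant defence, feedback and cell death. In the liver the pathway is known for its response to amino acid shortage, mitochondrial defects and endoplasmic reticulum stress, and for the release of FGF21. Because ATF4 is set largely by translation, the *Atf4* mRNA is not a measure of the protein, which was not analysed here.

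Gene counts summed to between 20872262 and 24747870 in the wild-type and between 23474693 and 30450057 in the Ndrg3 LKO libraries. At these depths 3 counts, taken as the smallest signal a library can show, correspond to between 0.0727 and 0.178 CPM, a floor that covers counting error only. All levels are CPM after TMM adjustment of the library sizes. *Ndrg3* had a log2 fold change of -1.20 (standard error 0.13), and its 2 groups did not overlap, as the genotype labels say. Ndrg3 LKO replicate 5 stood apart. On the first principal component, which held 68.7% of the variance, it lay at 14.1, against 51.1 to 56.6 for the other 4 Ndrg3 LKO livers and -49.9 to -43.0 for the wild-type livers. The 20 most abundant genes took 26.6% of its counts, against 16.3% to 17.3% in the other 4. Values of the 10 genes are therefore given with and without it, and those of the gene lists where leaving out a liver moved a count by over 1.5 times. Of the hepatocyte markers tested, 8 of 10 were lower in Ndrg3 LKO livers, beside 23.0% of all genes tested. The summed level of the hepatocyte markers was 137200 to 178500 CPM in wild-type livers, 36770 to 42910 CPM in Ndrg3 LKO replicates 1 to 4 and 152300 CPM in replicate 5. *Alb* weighs most in this sum, at 80480 to 115800 CPM in wild-type and 20930 to 107800 CPM in Ndrg3 LKO livers. Of the 10 markers, 4 (*Apoa1*, *Apob*, *Fgb* and *Hnf4a*) were lower without overlap, replicate 5 included, beside 15.9% of all genes tested. Beside 25.6% of all genes tested, higher levels were found for 11 of 11 macrophage markers (134 to 361 CPM summed in wild-type livers, 292 to 939 CPM in replicates 1 to 4 and 417 CPM in replicate 5), none of them at 0. The same was found for 7 of 8 endothelial markers (summed level 73.8 to 91.9, 150 to 185 and 144 CPM) and 6 of 9 stellate cell and fibroblast markers (117 to 182, 250 to 329 and 264 CPM). No neutrophil, monocyte or lymphocyte marker reached the level for testing. Summed, the neutrophil and monocyte markers were at 0.617 to 1.78 CPM in wild-type livers, 1.84 to 6.50 CPM in replicates 1 to 4 and 14.5 CPM in replicate 5. Those of T, B and NK cells were at 2.74 to 5.90, 3.34 to 11.3 and 13.0 CPM. Of 6 biliary markers tested, 1 was higher and 1 lower. The erythroid marker *Alas2* was lower (log2 fold change -3.19), while the hemoglobin genes *Hbb-b1*, *Hba-a1* and *Hba-a2* were listed at 0 in every liver. The part of these cell types in the results was not tested.

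Because the 10 genes are classed together as ATF4 targets or partners, their promoters were searched for the 8 letters of the C/EBP-ATF response element, TGATGNAA, on both strands. RefSeq promoter windows (GRCm38.p6) of 250 bases before to 50 bases after the transcription start were used, and each window of the 10 genes was found once, letter for letter, in its NCBIM37 (mm9) chromosome. The letters occurred in 3.97% of all 32851 windows and in those of 6 of the 10 genes. The 6 are shown on the strand of the gene with the match in capitals, because genes that rose, fell and did not pass the test are among them. A match is a stretch of letters and not a measured binding site.
Asns (chr6:7643214-7643243, minus strand): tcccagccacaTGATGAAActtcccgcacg
Atf3 (chr1:193007289-193007348, minus strand): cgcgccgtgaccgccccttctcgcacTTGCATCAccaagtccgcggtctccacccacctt
Chac1 (chr2:119176759-119176818, plus strand): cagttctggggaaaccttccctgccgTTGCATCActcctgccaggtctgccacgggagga
Slc7a11 (chr3:50247549-50247627, minus strand): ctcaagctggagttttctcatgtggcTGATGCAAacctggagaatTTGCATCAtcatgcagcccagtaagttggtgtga
Fgf21 (chr7:52870966-52871025, minus strand): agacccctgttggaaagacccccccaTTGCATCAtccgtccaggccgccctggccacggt
Trib3 (chr2:152169764-152169793, minus strand): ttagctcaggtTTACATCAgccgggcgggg

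*Slc7a11* had 2 matches, in opposite orientation. Counted from the start, the match of *Asns* began at position -23, those of *Fgf21* and *Chac1* at positions -139 and -193, and that of *Trib3* at position 15. These positions are counted from the RefSeq start. The mm9 gene models used for the coordinates of the genes start elsewhere, so that the match of *Asns* lies inside its gene model and that of *Trib3* outside it, while the matches of the other 4 genes lie before the start by both. The windows of *Atf4*, *Ddit3*, *Sesn2* and both starts of *Atf5* held none. The letters of the cAMP response element, TGACGTCA, occurred in 1.79% of all windows and in none of the 10 genes.

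**Figure D1:**
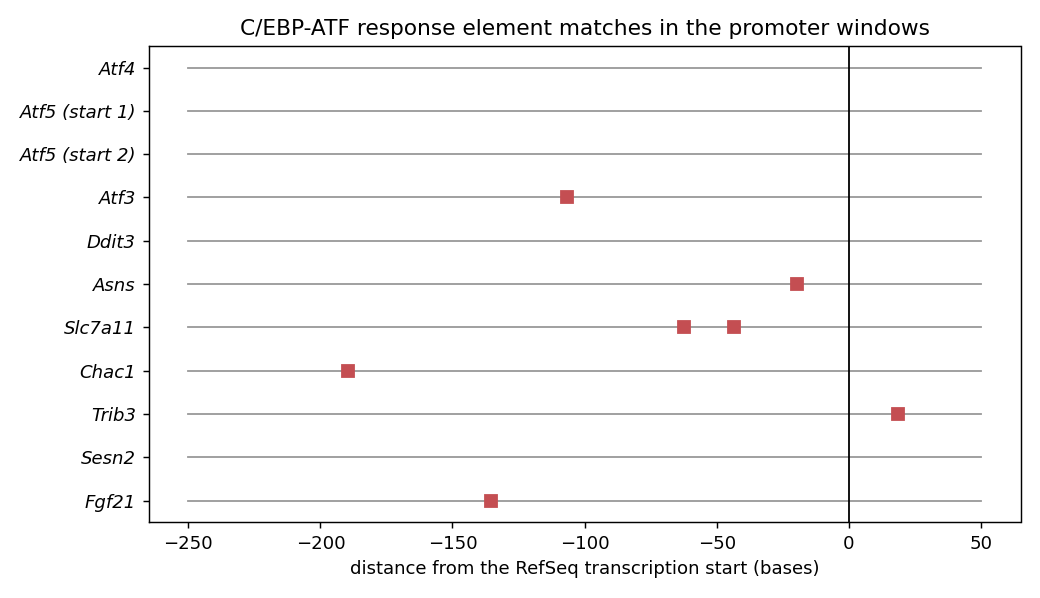
Position of TGATGNAA matches (red squares) in the RefSeq promoter windows (grey lines) of the 10 genes, as distance from the RefSeq transcription start in bases. Of the 10 genes, 6 had a match, *Slc7a11* had 2, and *Atf4*, *Atf5*, *Ddit3* and *Sesn2* had none between 250 bases before and 50 bases after the start.

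The question of the comparison was which of the stress response genes differ between Ndrg3 LKO and wild-type livers. Among the 9 genes tested, *Asns*, *Atf5* and *Atf3* rose and *Chac1* fell, while *Atf4*, *Ddit3*, *Trib3*, *Sesn2* and *Fgf21* did not pass the test. The count of 3 higher of 9 stands beside 25.6% of all genes tested that were higher, and the count of 1 lower beside 23.0% that were lower (quasi-likelihood test of edgeR, p adjusted by the Benjamini-Hochberg method, threshold 0.05). These shares are near the background and are not a result about the group. Without Ndrg3 LKO replicate 5, *Atf4* joined *Chac1*, giving 3 higher and 2 lower of 9, beside 28.4% and 27.2% of all genes tested. The groups did not overlap, with Ndrg3 LKO livers higher, for 3 of the 9 genes, beside 15.6% of all genes tested, and none of the 9 was lower without overlap, beside 15.9%. The median log2 fold change was 0.04 over the 9 genes and 0.03 over all genes tested, and -0.04 over the 9 genes without replicate 5.

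*Atf4*, the bZIP factor at the centre of the response, lies on the plus strand of chromosome 15 of mm9 from 80085614 to 80087970. Its level was 112, 144, 176, 112 and 157 CPM in wild-type replicates 1 to 5 and 100.2, 86.7, 72.5, 127 and 145 CPM in Ndrg3 LKO replicates 1 to 5. Ndrg3 LKO replicates 1 to 3 lay below every wild-type liver, and replicates 4 and 5 lay among them. The log2 fold change was -0.40 (standard error 0.20, 95% interval -0.85 to 0.04, edgeR adjusted p = 0.121) and +0.09 with library-size scaling (adjusted p = 0.654). Without Ndrg3 LKO replicate 5, which had the highest *Atf4* level of its group, it was -0.55 (adjusted p = 0.0278). *Atf4* was thus called lower in 9 livers and not in 10.

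*Atf5* encodes the bZIP factor most closely related to ATF4 and is likewise controlled at translation. Its gene is on the minus strand of chromosome 7 (52067627 to 52072028). Levels were 232, 254, 284, 85.3 and 220 CPM in the wild-type livers and 813, 939, 660, 949 and 695 CPM in the Ndrg3 LKO livers. The lowest Ndrg3 LKO liver stood above the highest wild-type liver, and wild-type replicate 4 lay far below the others of its group. *Atf5* was 3.77-fold higher (log2 fold change 1.92, standard error 0.28, 95% interval 1.30 to 2.53, edgeR adjusted p = 0.00027). Without replicate 5 the log2 fold change was 1.95. *Atf5* overlaps *Nup62* and *Il4i1* on the opposite strand, and the strand setting of the counting is not given in the sources used here. *Nup62*, a nuclear pore gene, had a mean of 19.7 CPM in wild-type and 17.3 CPM in Ndrg3 LKO livers, and *Il4i1* had at most 3 counts in any liver, so neither was near the level of *Atf5*.

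*Atf3*, an early stress gene and transcriptional repressor of the same family, lies on the minus strand of chromosome 1 (192994175 to 193007219). Its level was 1.57, 3.22, 3.79, 1.75 and 2.86 CPM in the wild-type livers and 7.85, 9.26, 4.89, 15.9 and 5.51 CPM in the Ndrg3 LKO livers. All Ndrg3 LKO livers were above all wild-type livers, with replicate 4 the highest. The rise was 3.30-fold (log2 fold change 1.72, standard error 0.35, 95% interval 0.95 to 2.49, edgeR adjusted p = 0.0021), and 1.83 on the log2 scale without replicate 5.

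*Ddit3* encodes CHOP, the bZIP factor that links prolonged stress to cell death, and lies on the plus strand of chromosome 10 (126727830 to 126733344). Levels were 5.50, 7.52, 8.02, 7.63 and 9.22 CPM in the wild-type livers and 9.66, 9.19, 7.57, 13.1 and 13.1 CPM in the Ndrg3 LKO livers. Ndrg3 LKO replicates 1, 4 and 5 exceeded every wild-type liver, while replicates 2 and 3 did not. The log2 fold change was 0.47 (standard error 0.19, 95% interval 0.05 to 0.89), with an edgeR adjusted p of 0.0604. The same gene was called higher with upper-quartile scaling (0.54, adjusted p = 0.0336), with library-size scaling (0.97, adjusted p = 0.00096), with a mean CPM of at least 5 as the filter (0.53, adjusted p = 0.0376) and without Ndrg3 LKO replicate 3 (0.57, adjusted p = 0.0291), but not without replicate 5 (0.37, adjusted p = 0.119). *Ddit3* overlaps *Mars*, the methionyl-tRNA synthetase gene, on the opposite strand, and with the strand setting not given, reads of the pair may not be separated. *Mars* had a log2 fold change of 0.37 (edgeR adjusted p = 0.0863), and of 0.48 without replicate 5 (adjusted p = 0.0103).

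**Figure D2:**
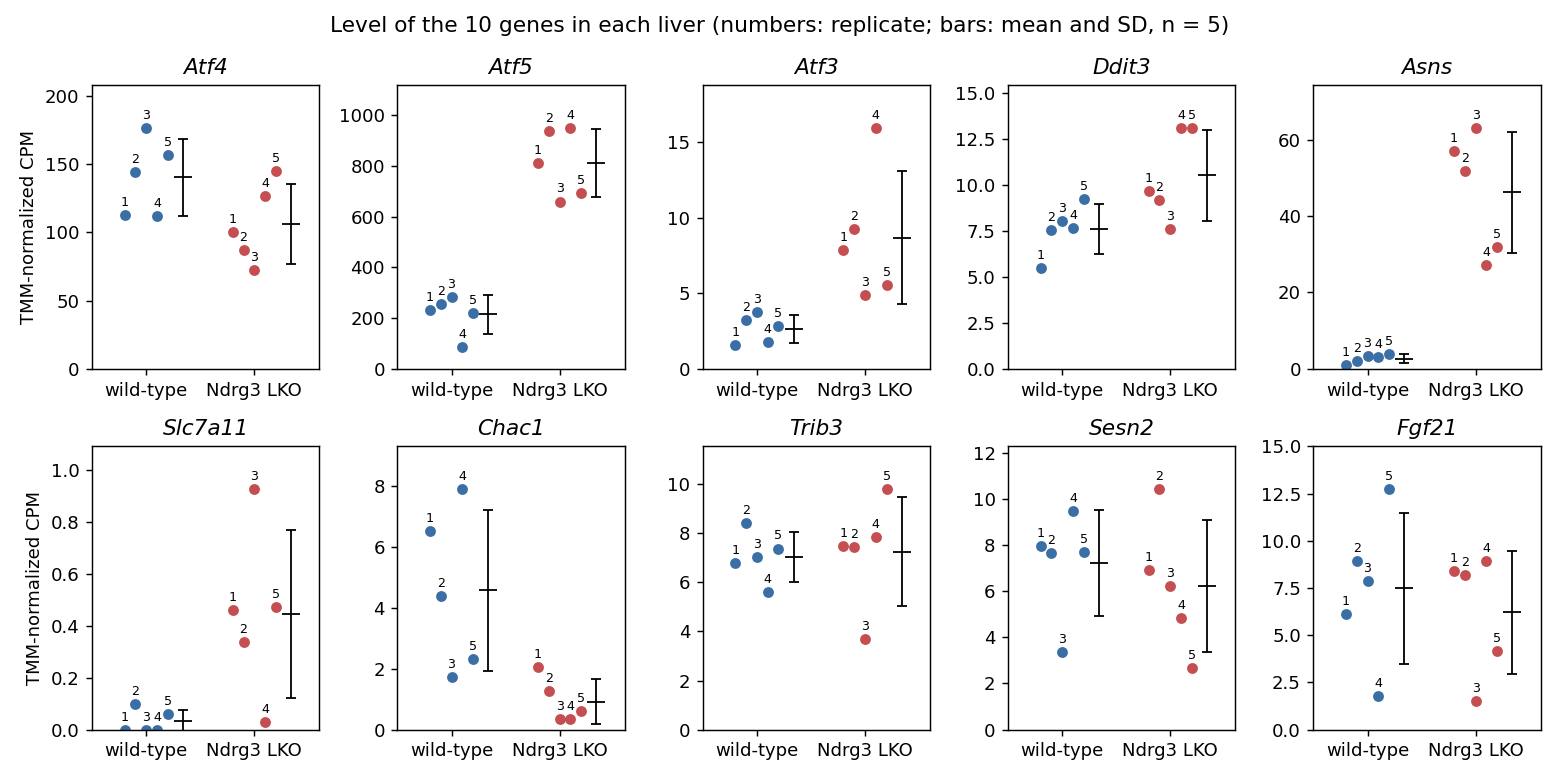
TMM-normalized CPM (vertical axes, from 0) of the 10 genes in wild-type (blue) and Ndrg3 LKO (red) livers. Points are livers labelled with the replicate number, and bars are the mean and SD of 5 livers, cut at 0. For *Atf5*, *Atf3* and *Asns* the groups do not overlap, and for the other genes they do, *Slc7a11* included.

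Among the target genes, *Asns* showed the largest change of the 9 genes tested. It encodes asparagine synthetase, which makes asparagine from aspartate and glutamine, and lies on the minus strand of chromosome 6 (7625169 to 7643254). Its level was 1.07, 2.0, 3.45, 2.99 and 3.99 CPM in the wild-type livers and 56.9, 51.9, 63.0, 27.2 and 31.9 CPM in the Ndrg3 LKO livers. The groups were far apart, with Ndrg3 LKO replicates 4 and 5 below the other 3. *Asns* was 17.1-fold higher (log2 fold change 4.10, standard error 0.36, 95% interval 3.33 to 4.87, edgeR adjusted p = 1.03e-05) and ranked 53rd among all genes tested by size of rise. Without replicate 5 the log2 fold change was 4.19.

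*Slc7a11* encodes xCT, the cystine-glutamate exchanger that feeds glutathione synthesis, on the minus strand of chromosome 3 (50168858 to 50247535). It had 0, 2, 0, 0 and 1 counts in the wild-type livers and 16, 14, 36, 1 and 10 counts in the Ndrg3 LKO livers. Of the Ndrg3 LKO livers, replicate 4 was at the wild-type level and the other 4 lay above every wild-type liver. Pooled over livers, 3 counts stood against 77, a ratio of 14.2 per adjusted library size with a 95% exact counting interval of 4.69 to 70.4, which leaves out the spread between livers. The difference of mean log2(CPM + 1) was 0.46 (2-sided exact permutation test, p = 0.0238, where the smallest p that 5 livers against 5 allow is 0.00794). Without replicate 5 this difference was 0.45. The gene was below 1 CPM in every liver, and the wild-type livers and Ndrg3 LKO replicate 4 had no more than the 3 counts of the floor.

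*Chac1* encodes an enzyme that degrades glutathione, and lies on the plus strand of chromosome 2 (119176965 to 119180117). It moved the other way from *Asns* and *Atf3*. Levels were 6.51, 4.40, 1.73, 7.90 and 2.32 CPM in the wild-type livers and 2.04, 1.26, 0.360, 0.342 and 0.613 CPM in the Ndrg3 LKO livers. Ndrg3 LKO replicates 2 to 5 lay below every wild-type liver, and replicate 1 lay above wild-type replicate 3. *Chac1* fell by 2.29 on the log2 scale (standard error 0.55, 95% interval -3.50 to -1.09, edgeR adjusted p = 0.0052), a log2 fold change of -2.21 without replicate 5.

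*Trib3* encodes a pseudokinase that ATF4 and CHOP induce and that binds both in turn. It lies on the minus strand of chromosome 2 (152163158 to 152169768). Its level was 6.79, 8.40, 7.02, 5.60 and 7.38 CPM in the wild-type livers and 7.47, 7.44, 3.71, 7.84 and 9.80 CPM in the Ndrg3 LKO livers. The groups overlapped throughout, with Ndrg3 LKO replicates 3 and 5 as the lowest and the highest of all 10 livers. The log2 fold change was 0.04 (standard error 0.23, 95% interval -0.46 to 0.54, edgeR adjusted p = 0.897), -0.10 without replicate 5, and 0.54 with library-size scaling (adjusted p = 0.0397), which was close to the median shift of all genes under that scaling.

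*Sesn2* encodes sestrin 2, a leucine sensor that restrains mTORC1, on the minus strand of chromosome 4 (132047947 to 132066416), where it overlaps the annotated gene *Gm12981* on the same strand. Levels were 7.97, 7.67, 3.34, 9.46 and 7.68 CPM in the wild-type livers and 6.93, 10.4, 6.20, 4.84 and 2.69 CPM in the Ndrg3 LKO livers. Each group had 1 liver under 4 CPM, wild-type replicate 3 and Ndrg3 LKO replicate 5. The log2 fold change was -0.21 (standard error 0.34, 95% interval -0.95 to 0.52, edgeR adjusted p = 0.626) and +0.36 with library-size scaling (adjusted p = 0.434). It was -0.04 without Ndrg3 LKO replicate 5, and ran to -0.41 without wild-type replicate 3 and -0.48 without Ndrg3 LKO replicate 2, with no call in these fits.

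*Fgf21*, the gene of a hormone that the liver secretes under nutrient stress, lies on the minus strand of chromosome 7 (52869277 to 52870860). Its level was 6.12, 8.94, 7.85, 1.79 and 12.7 CPM in the wild-type livers and 8.39, 8.17, 1.49, 8.92 and 4.15 CPM in the Ndrg3 LKO livers. Each group had 1 liver under 2 CPM, wild-type replicate 4 and Ndrg3 LKO replicate 3, and the ranges overlapped. The log2 fold change was -0.26 (standard error 0.50, 95% interval -1.35 to 0.83, edgeR adjusted p = 0.690) and +0.31 with library-size scaling (adjusted p = 0.602). It was -0.16 without Ndrg3 LKO replicate 5, -0.52 without wild-type replicate 4, -0.001 without wild-type replicate 5 and -0.006 without Ndrg3 LKO replicate 3, again with no call. Differences within this interval were not detectable in these livers.

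Library-size scaling, under which the larger share of counts held by a few abundant genes in wild-type livers is not adjusted for, moved the median over all genes tested from 0.03 to 0.56 on the log2 scale. Relative to that median, the log2 fold changes of *Atf4* were -0.43 with TMM and -0.47 with library-size scaling, those of *Ddit3* 0.44 and 0.41, and those of *Trib3* 0.01 and -0.02. The corresponding values were 4.07 and 4.09 for *Asns*, 1.88 and 1.92 for *Atf5*, 1.69 and 1.72 for *Atf3*, and -2.33 and -2.34 for *Chac1*. For *Sesn2* they were -0.24 and -0.19 and for *Fgf21* -0.29 and -0.25, so that relative to all genes neither changed sign.

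**Figure D3:**
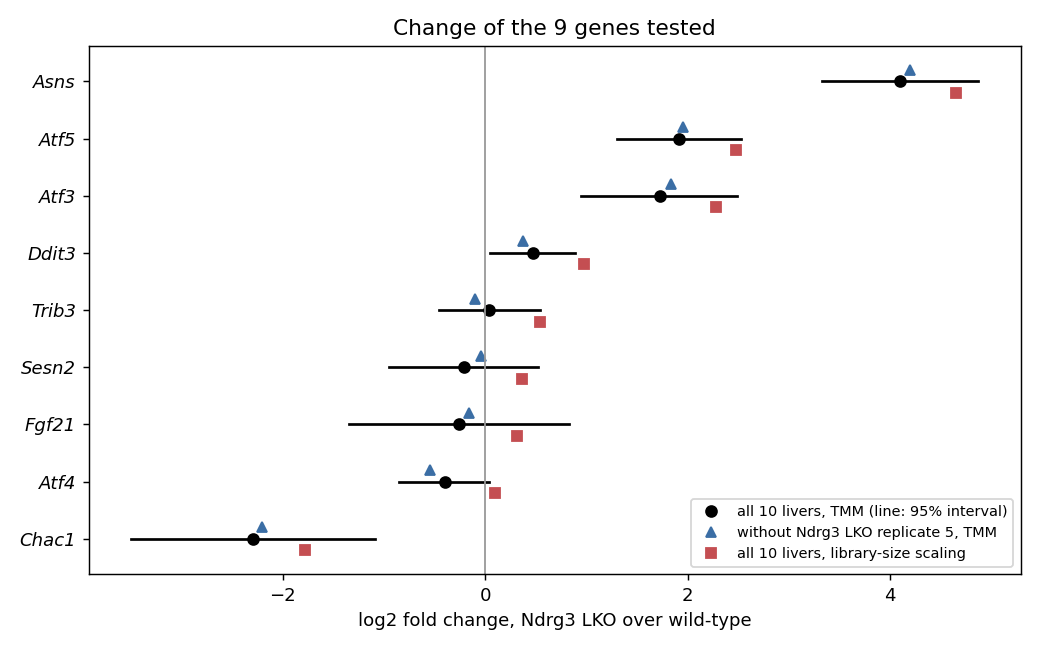
Log2 fold changes of the 9 genes tested, Ndrg3 LKO over wild-type, from edgeR with TMM in all 10 livers (circles, with 95% intervals), without Ndrg3 LKO replicate 5 (triangles) and with library-size scaling (squares). *Asns*, *Atf5* and *Atf3* lie to the right of 0 and *Chac1* to the left in each of the 3 fits, whereas *Atf4*, *Sesn2* and *Fgf21* are below 0 with TMM and at 0.09, 0.36 and 0.31 with library-size scaling.

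Levels per kilobase of exon allow the genes to be ordered within a group. In wild-type livers *Atf5* (mean 108 CPM per kilobase) and *Atf4* (81.3) came first and overlapped in range. *Fgf21* (8.05), *Ddit3* (4.42), *Trib3* (3.31), *Chac1* (2.79), *Sesn2* (2.08), *Atf3* (1.33) and *Asns* (0.987) followed, each overlapping in range with the next, and *Slc7a11* was last. In Ndrg3 LKO livers *Atf5* (407) stood above *Atf4* (61.6) with no overlap, and *Asns* (16.9) came next, separate from *Atf4* above it and from *Fgf21* (6.69) below it. *Chac1* (0.564) came last but for *Slc7a11*. Ratios to *Atf4* within a library do not depend on how libraries are scaled, and were chosen after the values had been seen. The ratio of *Atf5* to *Atf4* per kilobase was 0.659 to 1.79 in wild-type livers and 4.15 to 9.38 in Ndrg3 LKO livers. The ratio of *Ddit3* to *Atf4* was 0.0458 to 0.0686 and 0.0907 to 0.107, so these groups did not overlap although those of the *Ddit3* level did. Ratios of *Asns* and *Atf3* to *Atf4* were likewise higher in Ndrg3 LKO livers without overlap. For these 4 ratios the 2-sided exact permutation p was 0.00794, the smallest possible, or 0.0159 after Benjamini-Hochberg adjustment over the 8 ratios compared. All 8 ratios share *Atf4* as denominator, so they are not separate tests. The levels of *Atf5*, *Asns* and *Atf3* did not overlap before division, so their ratios add little. Reads shared with *Mars* may enter the *Ddit3* ratio. The other ratios, of *Trib3*, *Chac1*, *Sesn2* and *Fgf21*, had adjusted p between 0.0529 and 0.825 in the same permutation test.

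Livers of a group did not carry all 10 genes up or down together, although some genes moved alike. From lowest to highest, *Atf4*, *Ddit3* and *Trib3* had the same order of Ndrg3 LKO livers, replicates 3, 2, 1, 4 and 5. Part of this order rests on near ties, with *Ddit3* at 13.05 and 13.06 CPM in replicates 4 and 5. *Trib3* was at 7.44 and 7.47 CPM in replicates 2 and 1. In wild-type livers the orders of these genes differed. Ndrg3 LKO replicate 3 had the lowest *Atf4*, *Atf5*, *Atf3*, *Ddit3*, *Trib3* and *Fgf21* of its group and the highest *Asns* and *Slc7a11*. Ndrg3 LKO replicate 4 had the highest *Atf3*, *Atf5* and *Fgf21* and the lowest *Asns*, *Slc7a11* and *Chac1*. Among wild-type livers, replicate 4 had the lowest *Atf5* and *Fgf21* and the highest *Chac1* and *Sesn2*, while replicate 3 had the highest *Atf4*, *Atf5* and *Atf3* and the lowest *Chac1* and *Sesn2*. Outside the gene lists used here, the genes whose deviations from their group means followed those of *Atf4* most closely over the 10 livers were *Cand1* (Pearson r = 0.98), *Rpf1* (0.98), *Dpm1* (0.97), *Ist1* (0.97) and *Snx15* (0.97), of 11030 genes compared. These correlations are descriptions that share library and depth.

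Counts of the gene lists below stand beside 25.6% higher and 23.0% lower of all 11208 genes tested. Without Ndrg3 LKO replicate 5 these shares were 28.4% and 27.2%, and with library-size scaling 5821 genes were higher and 1010 lower. Upstream of ATF4, the 4 eIF2α kinase genes were measured in all livers. *Eif2ak1*, the heme-regulated kinase HRI, fell, from 39.8 to 52.4 CPM in wild-type livers to 17.6 to 30.3 CPM in Ndrg3 LKO livers (log2 fold change -1.15, standard error 0.16, edgeR adjusted p = 0.00017). The others did not pass the test, with log2 fold changes of 0.40 for *Eif2ak3* (PERK, the kinase of endoplasmic reticulum stress), -0.21 for *Eif2ak2* (PKR) and -0.28 for *Eif2ak4* (GCN2, the sensor of uncharged tRNA). *Eif2ak3* was called higher with library-size scaling (0.94). Of the 8 genes of eIF2 and its exchange factor eIF2B, *Eif2b5* rose (0.65) and the others did not pass the test, against 4 higher with library-size scaling.

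The genes that reverse eIF2α phosphorylation or restrain the kinases counted 2 higher and 5 lower of 8, beside 25.6% and 23.0% of all genes tested. Their median was -0.51, and library-size scaling gave 3 higher and 0 lower. The count higher was 1 in 8 of the 10 fits that left out 1 liver, 2 without Ndrg3 LKO replicate 1 and 3 without replicate 5, and 1 with no filter, while 4 or 5 were lower in each of the 10 fits. Among those lower with TMM were both targeting subunits of the eIF2α phosphatase, *Ppp1r15a* (GADD34, -0.67) and *Ppp1r15b* (CReP, -0.76), the catalytic subunit *Ppp1cc* (-0.71) and the kinase inhibitor *Dnajc3* (-0.69), whereas the adaptor *Nck2* rose (1.88). For *Ppp1r15a* and *Ppp1r15b* the values were -0.19 and -0.26 with library-size scaling and were not called. Of the genes listed around the mitochondrial relay that activates *Eif2ak1*, the protease gene *Oma1* had a log2 fold change of -0.06 (adjusted p = 0.709). The prohibitin gene *Phb* had a log2 fold change of 0.35 (adjusted p = 0.0462). *Phb* was the 1 call of the 4 relay genes tested. *Dele1*, also on this list, was not found under this symbol and was not measured here. No relay gene was called in 8 of the 10 fits that left out 1 liver, all but those without Ndrg3 LKO replicate 2 or 3, nor with median-of-ratios scaling or no filter, and all 4 were higher with library-size scaling.

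Of the bZIP partners and relatives of ATF4, 5 of 19 tested rose and 6 fell, beside 25.6% and 23.0% of all genes tested. Their median was 0.28. The count lower was 2 or 3 in 8 of the 10 fits that left out 1 liver, and 5 without wild-type replicate 4. Without Ndrg3 LKO replicate 5 the counts were 8 higher and 6 lower. The count lower was 3 with upper-quartile scaling or a mean CPM of at least 5 as the filter, and library-size scaling gave 10 higher and 2 lower. *Nfe2l2*, the gene of the antioxidant factor NRF2, rose from 37.3 to 45.3 CPM in wild-type livers to 69.3 to 255 CPM in Ndrg3 LKO livers (2.21, edgeR adjusted p = 0.00011). *Fos* (1.93) and *Jdp2* (1.04), an *Atf3* relative, also rose. The C/EBP genes were lower or did not pass the test, with *Cebpa*, a main hepatocyte factor, at 298 to 394 CPM in wild-type and 65.8 to 195 CPM in Ndrg3 LKO livers (-1.76), *Cebpd* at -0.97 and *Cebpb* at -0.89 (adjusted p = 0.0347 and 0.0479), and *Cebpg* at -0.07 (adjusted p = 0.709). With library-size scaling *Cebpa* was still called (-1.31) and *Cebpb* (-0.42) and *Cebpd* (-0.50) were not.

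Of the other genes that ATF4 is known to drive, 10 of 13 listed enzymes of amino acid and one-carbon metabolism were tested. They had 6 higher and 2 lower, beside 25.6% and 23.0% of all genes tested. Their median was 1.51, beside 0.03 for all genes tested, in a list chosen with earlier results of these data known. Leaving out 1 liver gave 6 or 7 higher. It gave 1 lower without wild-type replicate 1, 3 or 4 or Ndrg3 LKO replicate 1, 3 or 4, and 3 lower of 11 tested without replicate 5. *Phgdh* and *Psat1*, which open the pathway of serine synthesis from glycolysis, were at no more than 0.393 and 1.37 CPM in any wild-type liver and at 5.61 to 11.1 and 6.51 to 46.1 CPM in Ndrg3 LKO livers (log2 fold changes 5.16 and 5.42). *Phgdh* was under 1 CPM in every wild-type liver, so it passed the filter through Ndrg3 LKO livers only and could be called only as higher. *Psat1* was as low as 0.390 CPM in wild-type livers, so it could not pass the filter on wild-type livers alone either. *Mthfd1l* (2.90), *Mthfd2* (1.51) and *Pck2*, the mitochondrial phosphoenolpyruvate carboxykinase (2.73), rose as did *Psph* (1.51), the last enzyme of serine synthesis. *Shmt2* (-0.70) and *Gpt2* (-0.47) fell, but were at -0.20 and 0.05 and not called with library-size scaling. *Cth*, the cystathionine gamma-lyase gene, ran from 114 to 842 CPM in Ndrg3 LKO livers and from 448 to 659 CPM in wild-type livers (-0.60, adjusted p = 0.259) and was called lower without replicate 5 (-1.14, adjusted p = 0.0090).

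Amino acid transporters driven by ATF4 counted 3 higher and 1 lower of 6 tested, beside 25.6% and 23.0% of all genes tested. Their median was 1.02. The glutamine carrier *Slc1a5* (1.62), the neutral amino acid carrier *Slc1a4* (1.10) and *Slc3a2* (1.01), the heavy chain shared by xCT and LAT1, rose. *Slc1a4* was near the threshold (edgeR adjusted p = 0.0452), its groups overlapped, and it was not called in the replicate block fit (adjusted p = 0.110). The count higher was 2 without wild-type replicate 1, 3, 4 or 5 or Ndrg3 LKO replicate 1, 2 or 3, and 4 without Ndrg3 LKO replicate 5. *Slc3a2* was at 41.9 to 46.7 CPM in wild-type and 73.0 to 113 CPM in Ndrg3 LKO livers, far above its partner *Slc7a11*. *Slc7a5*, the LAT1 light chain, had a log2 fold change of 1.02 (adjusted p = 0.0536, and 0.0068 without replicate 5). *Slc6a9*, a glycine transporter, fell from 49.9 to 96.6 CPM in wild-type livers to 5.76 to 14.9 CPM in Ndrg3 LKO livers (-2.63, edgeR adjusted p = 2.95e-05). Without replicate 5, *Slc38a2* was also called lower (-0.42), which made 2 lower.

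Other targets of ATF4 and CHOP had 3 higher and 3 lower of 13 tested, beside 25.6% and 23.0% of all genes tested. Their median was 0.16. *Nupr1*, a stress-induced chromatin protein gene, was at 0.488 to 1.11 CPM in wild-type and 10.3 to 27.8 CPM in Ndrg3 LKO livers (4.66), and *Vldlr*, a lipoprotein receptor gene, at 0.357 to 1.28 and 9.85 to 47.0 CPM (5.04). With their lowest wild-type livers under 1 CPM, both genes could not pass the filter on wild-type livers alone. *Bcl2l11*, which encodes the cell death protein BIM, also rose (1.39). *Herpud1* fell (-1.15), as did the autophagy genes *Sqstm1* (-0.72) and *Map1lc3b* (-0.63), and the latter pair were at -0.25 and -0.13 and not called with library-size scaling. *Gdf15*, a stress hormone gene like *Fgf21*, had a log2 fold change of 0.94 (adjusted p = 0.175) with 2.02 to 16.0 CPM in wild-type and 5.82 to 40.6 CPM in Ndrg3 LKO livers. Without replicate 5 this list counted 4 higher and 5 lower of 14, and with library-size scaling 6 higher and 1 lower of 13.

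The endoplasmic reticulum branches of the unfolded protein response run through IRE1-XBP1 and ATF6. Their genes had 0 higher and 10 lower of 20 tested, beside 25.6% and 23.0% of all genes tested, with a median of -0.52. Those lower included the factor *Xbp1* (-1.13), the co-chaperone *Dnajb9* (-1.28) and the coat protein *Sec24d* (-2.29), and *Hspa5*, the chaperone BiP, did not pass the test (-0.31, adjusted p = 0.301). With library-size scaling the list had 1 higher and 5 lower, and *Xbp1*, *Dnajb9* and *Sec24d* were among the lower ones (-0.64, -0.78 and -1.84).

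**Figure D4:**
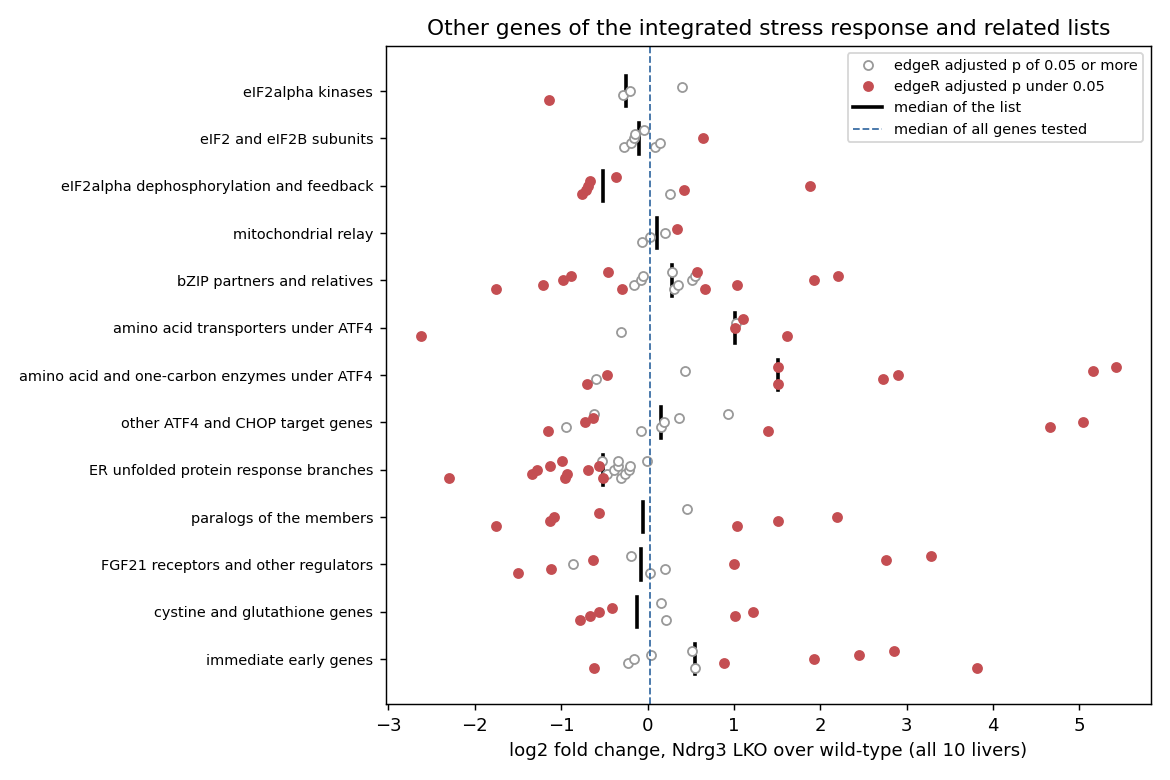
Log2 fold changes (horizontal axis, Ndrg3 LKO over wild-type, TMM) of the tested genes of 13 lists around the integrated stress response. Filled points passed the edgeR test, open points did not, black bars are list medians and the dashed line is the median of all genes tested, 0.03. The medians of the amino acid and one-carbon enzymes (1.51) and transporters (1.02) lie to the right of the line, and that of the unfolded protein response (-0.52) lies to the left. All lists were chosen with earlier results of these data known.

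Genes around FGF21 had 3 higher and 3 lower of 10 tested, beside 25.6% and 23.0% of all genes tested. With library-size scaling they had 5 higher and 1 lower. The coreceptor *Klb*, which FGF21 needs, did not pass the test (-0.19, adjusted p = 0.456) and nor did *Fgfr4* (0.21, adjusted p = 0.382), whereas the receptor *Fgfr1* was lower (-1.11, and -0.59 and not called with library-size scaling) and *Fgfr3* was higher (0.997). Of the factors known to act on the *Fgf21* gene besides ATF4, *Ppara*, the fatty acid sensor, fell from 297 to 369 CPM in wild-type livers to 88.5 to 158 CPM in Ndrg3 LKO livers (-1.50, edgeR adjusted p = 4.8e-05). *Nr1d1*, the repressor REV-ERBα (3.28), and *Ppargc1a*, the coactivator PGC-1α (2.76), rose. *Mlxipl*, the gene of the glucose-responsive factor ChREBP, had a log2 fold change of -0.86 (adjusted p = 0.0564).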

How the data were processed

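Liver RNA was sequenced by the authors from stranded mRNA libraries, mapped to mm9 with STAR and counted per gene. The processing notes name STAR 2.7.3a, and the methods name another version. The deposited values are raw read counts per gene symbol, although labelled CPM. Ages are those of the methods, and a legend gives another range. Symbols were placed with GENCODE vM1 on NCBIM37.

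Genes reaching 1 CPM in 5 or more livers (4 when 1 liver was left out) were tested with edgeR 4.0.16 (R 4.3.3): TMM, quasi-likelihood test, Benjamini-Hochberg adjustment over all genes tested, threshold 0.05. Counting intervals of *Slc7a11* are exact. Scripts were tested on simulated data. The 20 within-group pairs of livers differed by more than sampling noise (chi-square per degree of freedom 25.7 to 450.3). The alternatives were median-of-ratios, upper-quartile and library-size scaling, DESeq2 1.42.0, limma 3.58.1 on log2(CPM + 1) and log2(CPM + 5), no filter, a mean CPM of at least 5, a fold limit, the replicate block and each liver left out.

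The 10 genes and all lists were chosen with earlier results of these data known. Genes under 1 CPM in every wild-type liver, such as *Phgdh*, *Slc7a8* and *Ier3*, passed the filter only through Ndrg3 LKO livers and could be called only as higher. Genes whose lowest wild-type liver was under 1 CPM, such as *Psat1*, *Nupr1* and *Vldlr*, could not pass on wild-type livers alone. This favours calls as higher. All 10 genes were named with every liver's value. From each list, called genes were named by size, up to 5 each way, then genes whose role defines it.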

Additional observations from a re-analysis of the deposited data

How the results depend on the processing

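The calls of *Asns*, *Atf5* and *Atf3* held in each of 19 alternatives, with log2 fold changes of 2.69 to 4.65, 1.70 to 2.48 and 0.80 to 2.28, and that of *Chac1* in each of the 18 that tested it (-2.81 to -0.66). *Chac1* was not tested with a mean CPM of at least 5, which left 0 of the 10 genes lower. Library-size scaling gave 5 of them higher. It also turned *Atf4* to 0.093, *Sesn2* to 0.36 and *Fgf21* to 0.31, none of them called, and gave 5821 genes higher and 1010 lower among all genes tested. An absolute log2 fold change above 1 left 1280 higher and 1021 lower. Leaving out each liver in turn gave 1 to 2 of the 10 genes lower, the 2 being without Ndrg3 LKO replicate 5, and *Trib3* at -0.10 to 0.21. *Trib3* was also below 0 with limma on log2(CPM + 1) (-0.003) and in the replicate block fit (-0.007), and was not called in either. The cause of these changes was not tested.

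Both groups carry replicate numbers 1 to 5. Correlations of same-numbered livers' deviations from the group means were -0.36 to 0.04 over 5 pairs, so the numbers were not taken as pairs, and the replicate block changed no call among the 9 genes tested (*Atf5* 1.99, *Asns* 4.10). Among the lists it gave 2 rather than 6 bZIP genes and 1 rather than 4 glutathione genes lower, and moved the other list counts by at most 2. Depth limits *Slc7a11* most, with 1 to 36 counts per Ndrg3 LKO liver.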

Other observations

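Paralogs of the 10 genes counted 3 higher and 4 lower of 8 tested, beside 25.6% and 23.0% of all genes tested. They counted 0 and 2 with a mean CPM of at least 5 as the filter. The sestrin genes *Sesn1* (log2 fold change -1.08) and *Sesn3* (-1.14) fell, from 10.7 to 12.9 and 2.13 to 3.12 CPM in wild-type livers to 3.97 to 7.54 and 0.826 to 1.84 CPM in Ndrg3 LKO livers, as did the tribbles gene *Trib1* (-1.76), whereas *Sesn2* and *Trib3* did not pass edgeR's quasi-likelihood test. *Chac2*, the constitutive relative of *Chac1*, was lower as well (-0.56), but at -0.05 and not called with library-size scaling. The *Slc7a11* relatives *Slc7a8* (2.19) and *Slc7a7* (1.51) rose, and *Fgf15* was listed at 0 in every liver.

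Genes of cystine and glutathione metabolism had 2 higher and 4 lower of 8 tested, beside 25.6% and 23.0% of all genes tested. With library-size scaling they had 4 higher and 0 lower. The count lower was 1 without Ndrg3 LKO replicate 1 or 4, 2 without wild-type replicate 1, 3 or 4 or Ndrg3 LKO replicate 2 or 3, and 3 or 4 in the other fits that left out 1 liver. *Gss*, which completes glutathione synthesis, rose from 67.2 to 103 CPM in wild-type livers to 179 to 232 CPM in Ndrg3 LKO livers (1.23), while both subunits of the preceding enzyme, *Gclc* (-0.67) and *Gclm* (-0.78), were lower with TMM and not called with library-size scaling (-0.20 and -0.28). Immediate early genes, to which *Atf3* is related by its rapid induction, had 5 higher and 1 lower of 11 tested, beside 25.6% and 23.0% of all genes tested. The counts were 6 and 3 without replicate 5, and 8 and 0 with library-size scaling. Those higher were *Nr4a1* (3.82), *Klf6* (2.85), *Ier3* (2.45), *Fos* (1.93) and *Egr1* (0.88), and *Zfp36* was lower (-0.63, adjusted p = 0.0341, and -0.14 and not called with library-size scaling). No gene of this list was called lower without wild-type replicate 1 or 2 or without any 1 of Ndrg3 LKO replicates 1 to 4.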
